A study of Mus musculus with 16 samples.

Results

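Ependymal ciliated cell genes were examined in libraries labelled as brain microglia, from mice with experimental autoimmune encephalomyelitis (EAE) and from PBS-treated mice. The 10 genes were Fam216b, Foxj1, Ccdc153, Tmem212, Dynlrb2, Rsph1, Rarres2, Hydin, Spag16 and Mlf1, and each matched 1 of the 21878 mRNAs in the count and FPKM tables by its symbol. Fam216b was chosen from the difference between EAE and PBS-treated mice in these data, and the other 9 were chosen as genes of ciliated ependymal cells with earlier results of these data known. Their differences between the groups are therefore given as a description, and nothing is read from the counts of these genes that passed a test. All 10 had enough reads to be tested with the 17885 mRNAs that held a total of at least 16 counts.

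All mice were wild-type C57BL/6 females, aged 8 weeks. The 8 EAE mice were immunized under the skin with the myelin peptide MOG35–55 in complete Freund's adjuvant and received pertussis toxin at 200 ng per dose, and the 8 control mice received PBS injections. The peptide is named as in the protocols, since the treatment labels of single mice give a last residue that rises by 1 from 55 in EAE 1 to 62 in EAE 8. By the protocol, brains were taken at the peak of disease, 14 days after induction, and CD11b+/CD45int cells were sorted as microglia. For each mouse, 1 stranded total RNA library was sequenced. Libraries are named by group and replicate number, and their total counts ranged from 24587443 to 34184576.

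Ependymal cells line the brain ventricles, and the beating of their motile cilia moves cerebrospinal fluid. A motile cilium is built on an axoneme of outer microtubule doublets around a central pair, in which dynein arms supply the force and radial spokes link the doublets to the centre. The transcription factors FOXJ1 and those of the RFX family switch on the genes of this apparatus, and RFX proteins bind a paired DNA element, the X-box, whose half-site contains the letters GTTGCC.

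The label of the cells was compared first with markers of cell types in the brain. All levels here are in FPKM, which scales fragments to both transcript length and library size and so allows levels of different genes to be compared. The mean FPKM of the 10 microglia markers was 8.77–15.7 per library. It was below that of the 8 neuron markers (117–146), the 8 astrocyte markers (141–213) and the 8 oligodendrocyte markers (114–160). These levels do not bear out the label of sorted microglia, and the cells are called microglia here by their label only. No marker of the 8 lists was at 0 in all 16 libraries. The 10 ciliated cell genes summed to 13.0–30.9 FPKM in EAE mice and 12.7–18.9 FPKM in PBS-treated mice, so they were detected at low levels. In libraries from many cells, fewer cells of a type and less RNA per cell cannot be told apart, and the cells that held these transcripts cannot be named from these data.

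Promoter sequences are shown because FOXJ1 and RFX act on this class of genes. RefSeq windows on GRCm38.p6, from 250 bases before to 50 bases after a RefSeq start, were available for 7 of the 10 genes. GTTGCC, or GGCAAC where it lies on the other strand, was present in the windows of Dynlrb2, Hydin, Spag16, Ccdc153 and Mlf1, which is 5 of 7. It was present in 12.5% of all 32851 windows. The stretches around the half-sites are given 5′ to 3′ on the plus strand, which is the coding strand of all 5 genes, with the half-site in capitals.
Dynlrb2 (chr8:116504944-116504989): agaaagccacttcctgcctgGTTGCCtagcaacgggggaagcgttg
Hydin (chr8:110266944-110266989): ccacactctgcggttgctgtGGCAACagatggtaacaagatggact
Spag16 (chr1:69826839-69826892): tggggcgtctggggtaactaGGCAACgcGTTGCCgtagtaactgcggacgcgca
Ccdc153 (chr9:44240505-44240550): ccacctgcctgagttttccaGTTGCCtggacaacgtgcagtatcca
Mlf1 (chr3:67373972-67374017): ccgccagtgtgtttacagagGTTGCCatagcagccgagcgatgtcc
Spag16 held 2 half-sites in opposite orientation, with their first bases 111 and 103 bases before the RefSeq start. The half-site began 152 bases before the RefSeq start in Ccdc153, 105 in Mlf1, 51 in Dynlrb2 and 13 in Hydin. This start, taken from the promoter windows, lies 98 bases after the RefSeq gene start given with the levels for Spag16. For Hydin it lies 9 bases after that gene start, and the starts coincide for the other 3 genes. A strict form of the X-box, GTTNCC and GGNAAC separated by exactly 2 bases, was searched on both strands. This form was in 0 of 7 windows and in 0.451% of all windows. Paired elements with other letters or another spacing were not searched and may be present in these windows. The forkhead core GTAAACA was in the window of Mlf1 alone among the 7, and in 3.65% of all windows. The windows of Fam216b and Tmem212 held none of these motifs. Among other genes of motile cilia with a window, 35 of 70 (50%) held GTTGCC in at least 1 window, against 14.1% of all 27025 genes. These are matches of letters and were not measured as bound sites.

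Fam216b encodes a protein whose function is not well known. The gene lies on chromosome 14 from base 78081024 to base 78089007 on the minus strand (GRCm38.p6), and its longest coding transcript has 4 exons and 138 codons. In EAE mice its level was lowest at 0.273 FPKM in EAE 3, had a median of 0.636 and was highest at 1.02 FPKM in EAE 4. In PBS-treated mice its level ran from 0.164 FPKM in PBS 5 to 0.466 FPKM in PBS 4, with a median of 0.266. The groups overlapped, but 5 of 8 EAE libraries lay above the highest PBS library and 8 of 8 lay above the PBS median. The mean was 0.633 ± 0.293 FPKM (SD, n = 8) in EAE mice and 0.302 ± 0.107 FPKM (SD, n = 8) in PBS-treated mice, and the fitted log2 fold change (log2FC) of EAE over PBS was 1.01 (SE 0.30). These levels rest on 15–62 reads per EAE library and 12–31 reads per PBS library. The lncRNA gene Gm19301 overlaps Fam216b on the opposite strand, and the strand setting of the counting is not given in the sources used here. The log2FC stayed between 0.89, without EAE 4, and 1.13, without PBS 4, when each library was left out in turn.

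**Figure D1:**
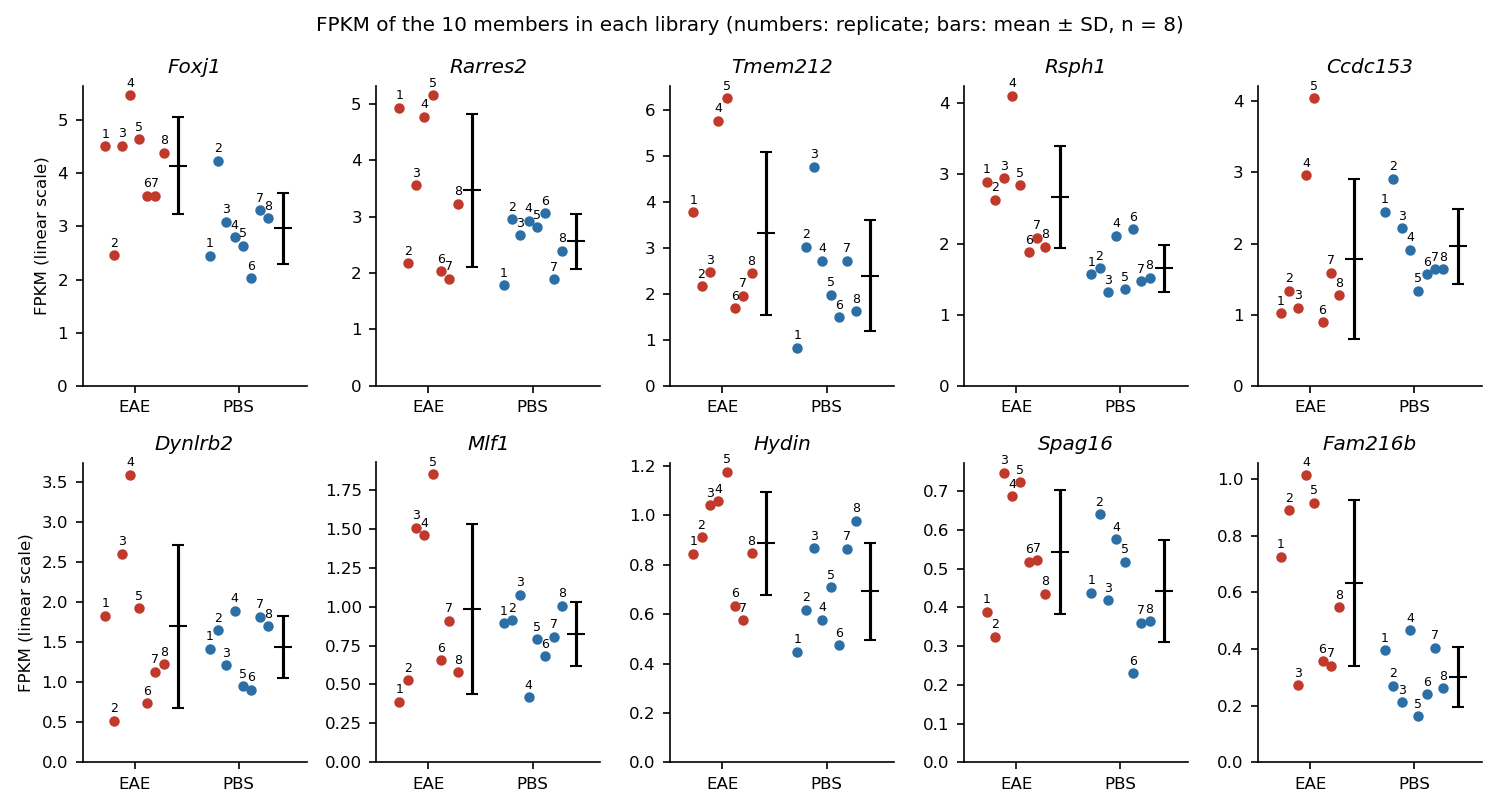
FPKM (vertical axis, linear, from 0) of each of the 10 ciliated cell genes in the 8 EAE and 8 PBS libraries (horizontal axis); points are libraries marked with their replicate number, and bars beside them give the mean ± SD. Fam216b and Rsph1 have all 8 EAE points above the PBS median, while EAE 4 or EAE 5 holds the highest EAE point of every gene but Spag16, which peaks in EAE 3.

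Foxj1, the transcription factor that drives the motile cilia programme, lies on chromosome 11 from base 116330704 to base 116335499. It had the highest mean level of the 10 genes, 3.55 FPKM over all 16 libraries. Its level in EAE mice was 2.46 FPKM at the lowest, 4.44 at the median and 5.47 at the highest, against 2.03, 2.94 and 4.24 FPKM in PBS-treated mice. The groups overlapped, with 5 of 8 EAE libraries above the highest PBS library, PBS 2. The log2FC of Foxj1 was 0.43 (SE 0.15), with a range of 0.36–0.53 when single libraries were left out.

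Dynlrb2, a light chain of the cytoplasmic dynein that carries cargo inside cilia, lies on chromosome 8 from base 116505015 to base 116515915. Its level ran from 0.521 FPKM in EAE 2 through a median of 1.53 to 3.59 FPKM in EAE 4. The PBS libraries lay within that range, from 0.906 to 1.89 FPKM, so both medians were 1.53 and the EAE libraries reached further in both directions. The log2FC of 0.18 (SE 0.33) turned to -0.07 without EAE 4. Only 7–48 reads per EAE library support the values of Dynlrb2.

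Rsph1, a component of the radial spoke head, lies on chromosome 17 from base 31255019 to base 31277296. Its level in EAE mice was 1.90 FPKM at the lowest, 2.74 at the median and 4.10 at the highest, and in PBS-treated mice it was 1.33, 1.56 and 2.22 FPKM. As for Fam216b, 5 of 8 EAE libraries lay above the highest PBS library and 8 of 8 above the PBS median. The log2FC of Rsph1 was 0.63 (SE 0.17), and it was 0.52 without EAE 4, the library with the highest level. An antisense gene, AC154652.1, overlaps Rsph1.

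Hydin and Spag16 encode proteins of the central pair apparatus. Hydin is a very long gene with 87 exons and 5154 codons in its longest coding transcript, on chromosome 8 from base 110266968 to base 110610253. Its level was 0.576 FPKM at the lowest, 0.880 at the median and 1.18 at the highest in EAE mice, against 0.448, 0.664 and 0.978 FPKM in PBS-treated mice. Despite the low FPKM, 184–562 reads per library fell on Hydin because of its length. Spag16, on chromosome 1 from base 69826872 to base 70725132, ran from 0.324 to 0.748 FPKM with a median of 0.520 in EAE mice, and from 0.231 to 0.641 FPKM with a median of 0.429 in PBS-treated mice. Both genes overlapped between the groups, with 3 of 8 EAE libraries above the highest PBS library for each. The log2FC was 0.30 (SE 0.16) for Hydin and 0.24 (SE 0.21) for Spag16. Spag16 was at 0.14 without PBS 6 and at 0.088 without EAE 4 and EAE 5, and Hydin was at 0.17 without EAE 4 and EAE 5.

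Ccdc153, a coiled-coil protein gene used as an ependymal marker, lies on chromosome 9 from base 44240677 to base 44247306. It was the single gene of the 10 with a log2FC below 0, at -0.18 (SE 0.28). In EAE mice its level had a median of 1.31 FPKM, but it reached 2.96 FPKM in EAE 4 and 4.04 FPKM in EAE 5, and 0.897 FPKM was the lowest. In PBS-treated mice it ran from 1.34 to 2.91 FPKM with a median of 1.78. Thus 2 EAE libraries lay above all PBS libraries and the other 6 lay below the PBS median. The log2FC fell further to -0.48 without EAE 5, and to -0.75 without both EAE 4 and EAE 5.

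Tmem212 encodes a membrane protein expressed in ciliated cells and lies on chromosome 3 from base 27866065 to base 27896391. Its level was 1.70 FPKM at the lowest, 2.46 at the median and 6.26 at the highest in EAE mice, and 0.831, 2.36 and 4.77 FPKM in PBS-treated mice. The log2FC of Tmem212 was 0.41 (SE 0.32) with all libraries and -0.04 without EAE 4 and EAE 5. Mlf1, an adaptor protein first known from a leukaemia fusion, lies on chromosome 3 from base 67374097 to base 67400000 and overlaps the coding gene Gm17402 on the opposite strand. Its level ran from 0.390 to 1.85 FPKM with a median of 0.782 in EAE mice, and from 0.420 to 1.08 FPKM with a median of 0.850 in PBS-treated mice. The log2FC of Mlf1 was 0.21 (SE 0.30) and fell to 0.01 without EAE 5.

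Rarres2 encodes chemerin, a secreted protein that attracts immune cells, and lies on chromosome 6 from base 48569696 to base 48572845, where it overlaps Lrrc61 on the opposite strand. Its level was 1.90 FPKM at the lowest, 3.39 at the median and 5.15 at the highest in EAE mice, and 1.79, 2.75 and 3.06 FPKM in PBS-treated mice. Rarres2 was above the highest PBS library in 5 EAE libraries, and the other 3 EAE libraries, EAE 2, EAE 6 and EAE 7, lay below the PBS median. The log2FC of Rarres2 was 0.38 (SE 0.22).

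Ordered by mean FPKM over the 16 libraries, the genes ran from Foxj1 (3.55) through Rarres2 (3.02), Tmem212 (2.86), Rsph1 (2.17), Ccdc153 (1.87), Dynlrb2 (1.57), Mlf1 (0.904), Hydin (0.789) and Spag16 (0.493) to Fam216b (0.468). Neighbours in this order were compared by their log2 ratio within each library. The mean log2 ratio exceeded its SD over libraries for 2 of the 9 neighbouring pairs, Dynlrb2 over Mlf1 (0.78, SD 0.69) and Hydin over Spag16 (0.69, SD 0.52), each in the same order in 15 of 16 libraries. The other 7 pairs did not differ beyond this spread. The order also depended on the group, since the mean of Fam216b (0.633) was above that of Spag16 (0.543) in EAE mice, and the mean of Ccdc153 (1.96) was above that of Rsph1 (1.66) in PBS-treated mice.

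Across the 10 genes, 9 had a log2FC above 0, with a median of 0.34, beside 52.7% of all mRNAs above 0 and a median of 0.01. The median of the 10 genes was 0.22 without EAE 5, and without both EAE 4 and EAE 5 it was 0.12, with 6 of 10 above 0. In the quasi-likelihood test of edgeR, with Benjamini-Hochberg adjustment across the 17885 mRNAs, 0 of the 10 were called at an adjusted p under 0.05 and a |log2FC| over 1, while 0.117% of all mRNAs were called. At an adjusted p under 0.05 with no fold threshold there were 0 of the 10, beside 2.42% of all mRNAs. At an unadjusted p under 0.05 there were 3, all higher in EAE mice, beside 7.92% of all mRNAs higher at that level. DESeq2 called 1 of the 10, Fam216b, beside 0.145% of all mRNAs, and put 2, Fam216b and Rsph1, past the adjusted p alone, beside 5.03% of all mRNAs. Since the same contrast took part in the choice of Fam216b, nothing is read from these counts. The biological coefficient of variation of the 10 genes was 0.21–0.43, against a median of 0.13 over all mRNAs.

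Earlier work on these files had found EAE 6, EAE 7, EAE 8, PBS 5, PBS 7 and PBS 8 to be the libraries most alike within their groups, although no label names a batch. Within these 6 libraries the median log2FC of the 10 genes was -0.052, with 4 of 10 above 0, and among the remaining 5 libraries per group it was 0.52, with 9 of 10 above 0. The direction of 5 genes differed between the sets. Dynlrb2 was -0.56 and 0.49, Hydin -0.34 and 0.68, Mlf1 -0.30 and 0.46, Tmem212 -0.08 and 0.60, and Rarres2 -0.02 and 0.55 in log2FC. Fam216b (0.55 and 1.20), Rsph1 (0.41 and 0.72), Foxj1 (0.31 and 0.49) and Spag16 (0.22 and 0.24) were above 0 in both sets, and Ccdc153 was below 0 in both. The difference between the sets was not tested.

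**Figure D2:**
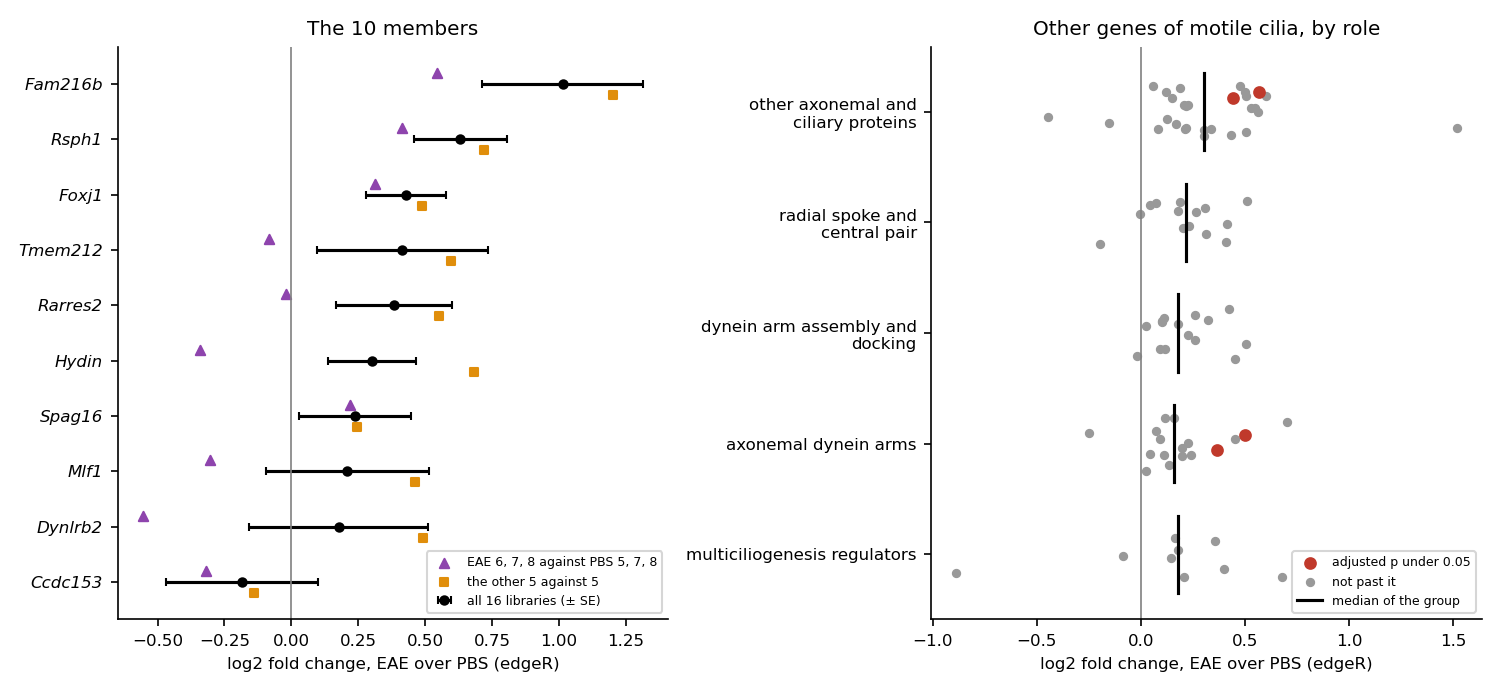
Left, log2 fold change of EAE over PBS (horizontal axis) for the 10 ciliated cell genes, with black points and SE bars for all 16 libraries, triangles for the 6 libraries most alike and squares for the other 10; Fam216b (1.01) is highest and Ccdc153 (-0.18) lowest, and 5 genes have a triangle below 0 and a square above 0. Right, the same scale for 84 other genes of motile cilia in 5 role groups, where vertical bars are medians, all above 0, and the 4 larger points passed the adjusted p.

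To place the 10 genes in their pathway, 86 other genes of motile cilia were listed by role, of which 85 were in the table and 84 had enough reads. Of these 84, 76 had a log2FC above 0 (90.5%), with a median of 0.21. At an unadjusted p under 0.05 in edgeR, 24 were higher (28.6%) and 0 lower, beside 1416 higher (7.92%) and 1702 lower of all 17885 mRNAs. After adjustment over all mRNAs in edgeR's quasi-likelihood test, 4 rose in EAE mice (4.76%), beside 0.660% of all mRNAs, and 0 fell in edgeR or DESeq2. None passed both the adjusted p and the fold threshold in edgeR or in DESeq2, although the highest log2FC in edgeR was 1.52. DESeq2 put 8 (9.52%) past the adjusted p, beside 5.03% of all mRNAs in either direction and 1.66% as higher. Without EAE 4 and EAE 5, 66 of 84 had a log2FC above 0 with a median of 0.13, and 9 (10.7%) had an edgeR adjusted p under 0.05, among them Tekt4 and Tppp3 as lower genes. That share lies below the 13.2% of all mRNAs that passed without these libraries.

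Cdhr3, a cadherin-related membrane protein of ciliated cells, was at 1.29–1.92 FPKM in EAE mice and 0.770–1.37 FPKM in PBS-treated mice. It rose by a log2FC of 0.57 (SE 0.12, adjusted p = 0.0180 in edgeR's quasi-likelihood test) and passed the test in all 16 fits that left out 1 library. Ccdc108, also named Cfap65, was at 3.13–4.58 FPKM in EAE mice and 2.15–3.56 FPKM in PBS-treated mice. It rose by 0.44 on the log2 scale (SE 0.10, edgeR adjusted p = 0.0265). Dnah2, an inner arm dynein heavy chain, rose by 0.37 on the log2 scale (SE 0.09, edgeR adjusted p = 0.0330). Dnah10, a further inner arm heavy chain, rose by 0.50 on the log2 scale (SE 0.13, edgeR adjusted p = 0.0461). The ranges of the groups overlapped for each of these 4 genes. Within the 6 libraries most alike and within the other 10, the log2FC was 0.47 and 0.63 for Cdhr3, 0.30 and 0.53 for Ccdc108, 0.12 and 0.52 for Dnah2, and 0.38 and 0.58 for Dnah10. Ccdc108 kept an adjusted p under 0.05 in 10 of 16 fits with 1 library left out, Dnah2 in 7 and Dnah10 in 3, and the highest adjusted p was 0.0623 and 0.0786 without PBS 2 and 0.106 without EAE 8.

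By role, 16 of 17 genes of the axonemal dynein arms had a log2FC above 0 and 2 passed the adjusted p in edgeR, Dnah2 and Dnah10. DESeq2 added Dnah6. The most abundant genes of the dynein arms, Dnal1 (log2FC 0.04, SE 0.06) and Wdr78 (0.09, SE 0.15), did not pass in either. Of the 15 genes of dynein arm assembly and docking, 14 were above 0 and 0 passed in edgeR or in DESeq2. At an unadjusted p under 0.05 in edgeR, 4 were higher (26.7%), beside 7.92% of all mRNAs. The most abundant were Gas8 (log2FC 0.26, SE 0.12), a part of the dynein regulatory complex, and Ccdc39 (0.18, SE 0.10), a part of the axonemal ruler. Rsph1, Hydin and Spag16 would belong to the radial spoke and central pair genes. Of the 14 other genes of this group, 12 were above 0 and 0 passed in edgeR, while in DESeq2 1 passed, Ak7. There, 4 were higher at an unadjusted p under 0.05 in edgeR (28.6%), beside the same 7.92%. The radial spoke genes Rsph9 and Rsph3a had log2FC values of 0.04 (SE 0.11) and -0.0047 (SE 0.14). Of 9 regulators of multiciliated cells, the group of Foxj1, 7 were above 0, with 0 at an unadjusted p under 0.05 in edgeR and 0 past the adjusted p in DESeq2. Rfx3 (log2FC 0.15, SE 0.08) and Rfx2 (0.21, SE 0.12), which bind the X-box, were the most abundant regulators. Of 29 other axonemal and ciliary proteins, 27 were above 0 and 2 passed in edgeR, Cdhr3 and Ccdc108. To these, DESeq2 added Tekt2 and 1110017D15Rik. The most abundant, Tppp3 (-0.15, SE 0.09) and Cfap44 (0.21, SE 0.08), did not pass in either.

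Markers of neighbouring cell types are given beside these values. Choroid plexus epithelium, which also lines the ventricles, was represented by 10 markers that summed to 82.1–138 FPKM in EAE mice (median 86.1) and 103–244 FPKM in PBS-treated mice (median 159). Its main transcript, Ttr, the carrier of thyroid hormone, fell by 0.88 on the log2 scale (SE 0.18, edgeR adjusted p = 0.0163), while 5 of the 10 markers were above 0 in log2FC. Astrocyte markers summed to 1125–1705 FPKM in EAE mice (median 1242) and 1303–1550 FPKM in PBS-treated mice (median 1373), and 7 of 8 had a log2FC below 0, the exception being Gfap (0.50, SE 0.12, edgeR adjusted p = 0.0312). The microglia markers summed to 102–157 FPKM in EAE mice and 87.7–146 FPKM in PBS-treated mice, and 9 of 10 were above 0 in log2FC. Of these, Itgam, which encodes CD11b, rose by 0.46 on the log2 scale (SE 0.07, edgeR adjusted p = 0.00180), with all 8 EAE libraries above all PBS libraries. Neuron markers summed to 940–1088 FPKM in EAE mice and 1070–1170 FPKM in PBS-treated mice, with 7 of 8 below 0 in log2FC. Gad1 (-0.53, edgeR adjusted p = 0.00309) and Syt1 (-0.28, edgeR adjusted p = 0.0326) fell, as did Vtn (-0.47, edgeR adjusted p = 0.0400) among the markers of endothelium and mural cells. Whether these cell types had a part in the values of the 10 genes was not tested.

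Next, it was examined whether the 10 genes varied together from mouse to mouse, which the choice of genes did not use. Values were taken as log2(CPM + 0.5), where CPM is the count scaled to the size of the library, minus the mean of the group, so that the difference between EAE and PBS-treated mice does not enter. The points share their library and its depth. In EAE 4 and EAE 5 all 10 genes were above the group mean, by 0.56 and 0.52 on average. In EAE 6, 0 of 10 were above it, and the average was -0.41. No PBS library had all 10 genes on one side, and their averages lay between -0.25 in PBS 6 and 0.24 in PBS 2. Among the 36 pairs of genes without Fam216b, Pearson's r over the 16 libraries was above 0 in all pairs and ran from 0.11 to 0.77, with a median of 0.47. The highest values were between Foxj1 and Dynlrb2 (0.77), Tmem212 and Rarres2 (0.71), and Foxj1 and Spag16 (0.66). Without EAE 4 and EAE 5, the median over the 36 pairs was 0.27, with 27 above 0. It was 0.63 within the 8 EAE libraries and 0.21 within the 8 PBS libraries, a difference that was not tested.

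**Figure D3:**
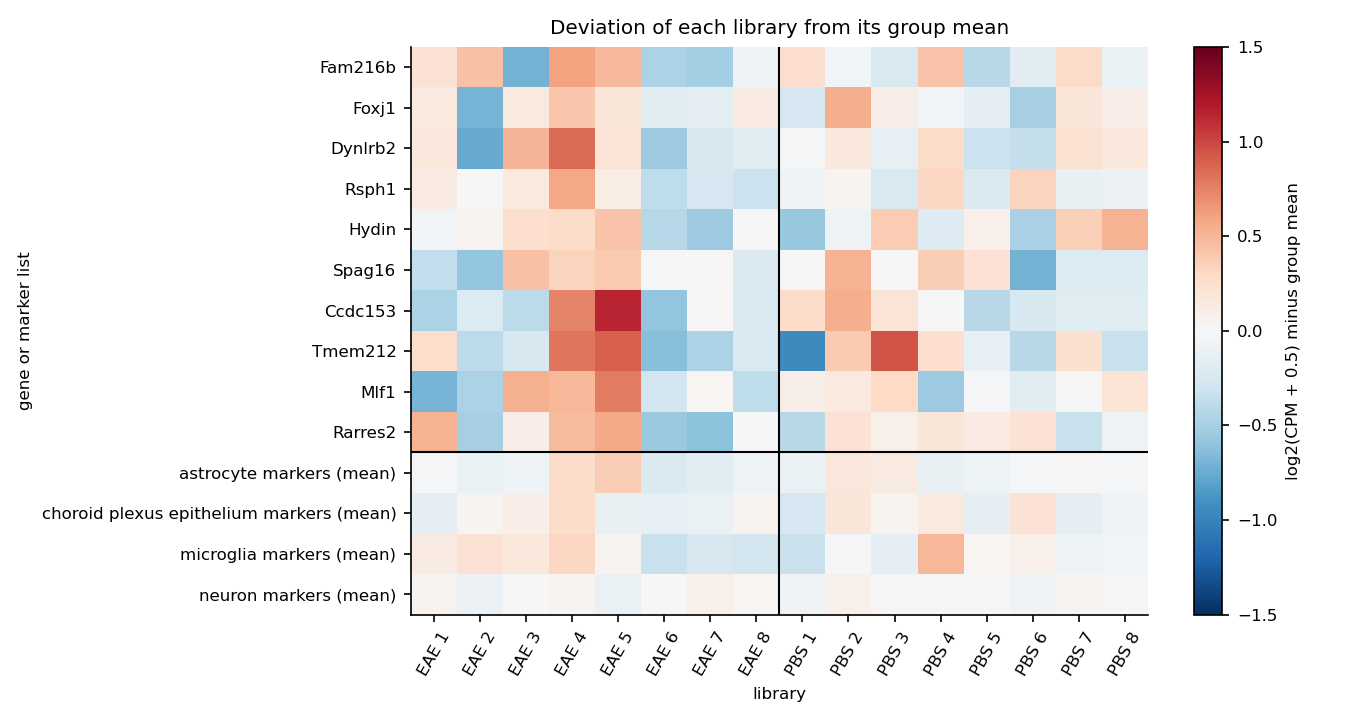
Difference of each library (columns) from its group mean in log2(CPM + 0.5) for the 10 ciliated cell genes and for the means of 4 marker lists (rows), with red above and blue below the mean. EAE 4 and EAE 5 are red for all 10 genes and also for the astrocyte markers, and EAE 6 is blue for all 10.

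**Figure D4:**
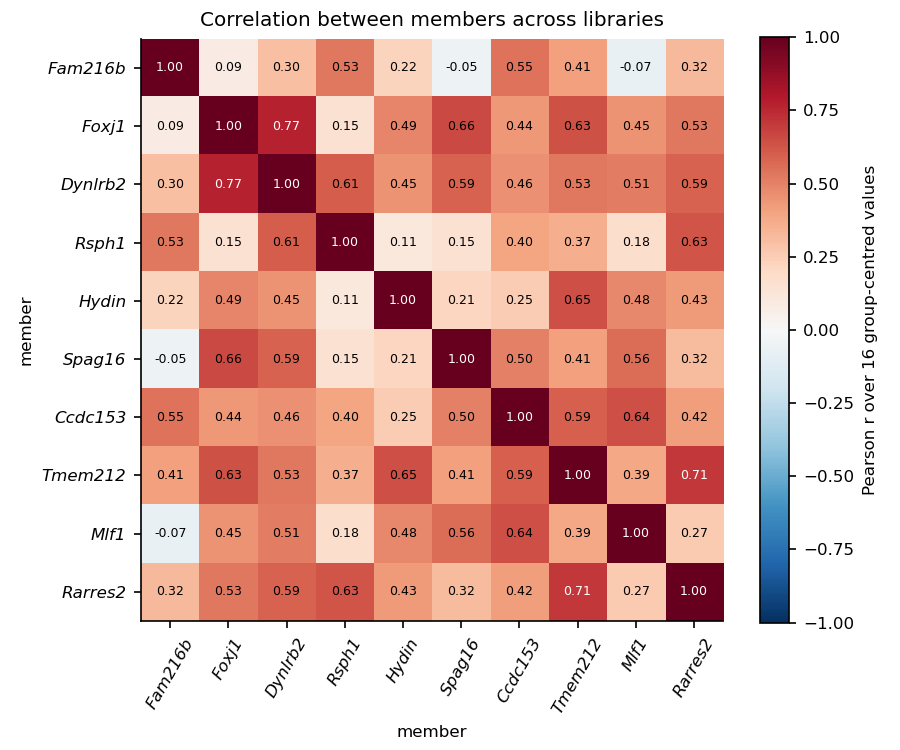
Pearson's r between each pair of the 10 genes (both axes) over the 16 group-centred libraries, printed in each cell and coloured from blue (-1) to red (1). The Fam216b row runs from -0.07 to 0.55, while Foxj1 and Dynlrb2 share the highest value, 0.77.

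Between Fam216b and the other 9 genes, r ran from -0.07 to 0.55 with a median of 0.30, and the difference from the other pairs was not tested. Without EAE 4 and EAE 5, these 9 values ran from -0.72 to 0.31 with a median of -0.013, and 3 were above 0. Its highest values were with Ccdc153 (r = 0.55, permutation p = 0.0274; Spearman's rho = 0.54, permutation p = 0.0331) and Rsph1 (r = 0.53, permutation p = 0.0360; rho = 0.47, permutation p = 0.0674). Neither passed the Benjamini-Hochberg adjustment over the 9 relations, with an adjusted permutation p of 0.162 for both r values and 0.286 for both rho values. Without EAE 4 and EAE 3, the libraries farthest from the median of Fam216b, r was 0.41 with Ccdc153 and 0.59 with Rsph1, and without EAE 4 and EAE 5 it was 0.18 and 0.31. Fam216b and Foxj1 had an r of 0.09 (permutation p = 0.754) and a rho of 0.28 (permutation p = 0.293). EAE 2 was high in Fam216b and lowest in Foxj1 within its group, and without EAE 2 this r was 0.36. It was 0.01 without EAE 4 and EAE 3 and -0.20 without EAE 4 and EAE 5. Ranked by r with Fam216b among 17884 mRNAs, Ccdc153 was at 825, Rsph1 at 1007 and Foxj1 at 7524, so 0 of the 9 were among the 179 mRNAs (1%) most like it. Those nearest to Fam216b were Best1 (r = 0.89), Bco1 (0.88), Wdpcp (0.86), Olfr460 (0.85), C1d (0.85), Aldh18a1 (0.84), Ydjc (0.83), Vps29 (0.83), Cntfr (0.83) and Zfp92 (0.83), over 16 libraries. None of these is on the lists of motile cilia or marker genes used here, which do not hold every gene of cilia. They were picked as the highest among 17884 mRNAs, and these r values were not tested. Bco1 and Olfr460 had at most 14 and 9 reads in a library.

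The mean of the 10 genes was also set beside the marker lists, as a description. It had an r of 0.90 with the mean of the 8 astrocyte markers over the 16 libraries, which was 0.96 within EAE mice, 0.65 within PBS-treated mice and 0.69 without EAE 4 and EAE 5. The r was 0.83 with the genes of the dynein arms, 0.81 with the other axonemal and ciliary proteins, 0.78 with radial spoke and central pair genes, 0.50 with the regulators and 0.18 with the assembly and docking genes. Without EAE 4 and EAE 5, these values were 0.68, 0.51, 0.51, 0.40 and -0.07 in the same order. Within EAE mice they were 0.89, 0.92, 0.86, 0.57 and 0.29, and within PBS-treated mice 0.68, 0.42, 0.23, 0.03 and 0.05. Over the 16 libraries, r was 0.53 with oligodendrocyte, 0.47 with endothelial and mural, 0.44 with microglia, 0.36 with choroid plexus, 0.36 with meningeal fibroblast, 0.25 with tanycyte and 0.06 with neuron markers. Several of these values rest on EAE 4 and EAE 5, without which r was 0.50 with neuron, 0.18 with oligodendrocyte and -0.03 with meningeal fibroblast markers. With neuron markers r was -0.17 within EAE mice and 0.76 within PBS-treated mice. Fam216b alone had an r of 0.74 with the other axonemal and ciliary proteins and 0.69 with radial spoke and central pair genes, and these were 0.58 and 0.52 without EAE 4 and EAE 5. Its r with the astrocyte markers was 0.47, and -0.03 without EAE 4 and EAE 5. The mRNAs most like the mean of the 10 genes were Calu (0.95), S1pr1 (0.93), Qk (0.92), Gja1 (0.92), Sparcl1 (0.90), Ccng1 (0.90), Id4 (0.90), Itgb8 (0.90), Apoe (0.90) and Rpl35a (0.90), of which Gja1, a gap junction gene, is on the astrocyte list.

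**Figure D5:**
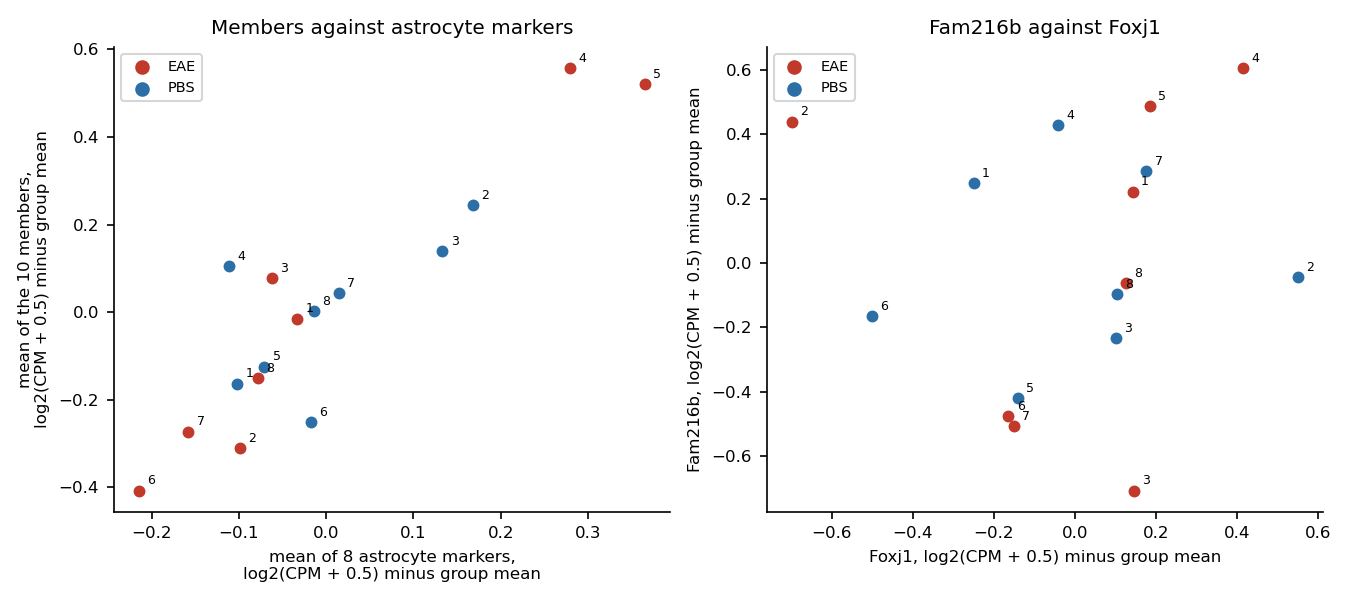
Left, mean of the 10 ciliated cell genes against the mean of the 8 astrocyte markers, both as log2(CPM + 0.5) minus the group mean, where EAE 4 and EAE 5 lie at the upper right and EAE 6 at the lower left (r = 0.90). Right, Fam216b against Foxj1 on the same scale (r = 0.09); red points are EAE and blue points PBS libraries, with replicate numbers.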

How the data were processed

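RNA-seq libraries labelled as sorted brain microglia, from 8 EAE and 8 PBS-treated mice, were used, grouped by their sample labels. Per the submitters' processing notes and the methods, the authors used bcl2fastq, HISAT2 2.1.0 on GRCm38, HTSeq 0.11.2 and DESeq2 1.22.2, and the authors deposited raw counts together with FPKM values, for 21878 mRNAs. The methods also name edgeR for the differential mRNAs, at a false discovery rate under 0.05 and a |log2FC| over 1. The strand setting of the counting is not given in the sources used here. Deposited counts were tested with edgeR 4.0.16 (R 4.3.3): quasi-likelihood test, TMM normalization, condition alone, a minimum of 16 counts in total per mRNA, Benjamini-Hochberg adjustment. FPKM values were used as levels. DESeq2 1.42.0, other filters, RLE size factors, a replicate block, a term for the 6 libraries most alike and leaving out libraries were alternatives. P-values of the edgeR and DESeq2 fits weigh the group difference against the spread between mice within groups. Permutation p-values concern the correlation between genes over libraries. The edgeR and correlation steps were tested on simulated data.

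Correlations used log2(CPM + 0.5) minus the group mean and two-sided permutation tests with 100000 resamples. The ciliated cell genes, the other cilia genes and the marker lists were chosen with earlier results of these data known. Named genes were the 10 ciliated cell genes, other cilia genes with an adjusted p under 0.05, the 2 most abundant genes of each role, the main or moving marker genes, and the 10 nearest by correlation. Tekt4, Wdr63, Dnah11, Ak7, Dnah6, Tekt2 and 1110017D15Rik were named after their values were seen. Gene positions and promoter windows came from RefSeq on GRCm38.p6. Strands, exons, codons and overlapping genes came from GENCODE on the same assembly. Of the listed cilia genes, 85 of 86 were matched, 2 of them through a synonym. No column of per-sample values was left unused.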

Additional observations from a re-analysis of the deposited data

Results flagged for a closer look

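The level of Rsph1 in EAE 4 was 4.10 FPKM, and the nearest of the other EAE libraries was at 2.94 FPKM. This gap was 0.529 of the range of the 8 EAE libraries, above Dixon's critical value for 8 samples. It was the single library set apart in this way among 20 groups, the 10 genes in EAE and in PBS-treated mice, and chance sets apart about 1 in 20 groups. The log2FC of Rsph1 without EAE 4 was 0.52, and all 7 other EAE libraries were also above the PBS median.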

How the results depend on the processing

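The contrast took part in the choice of Fam216b, so nothing is read from the counts of the 10 ciliated cell genes given here. With DESeq2, 1 of the 10 ciliated cell genes was called (Fam216b), beside 0.145% of all mRNAs. In that fit 2 had an adjusted p under 0.05, beside 5.03% of all mRNAs. With single libraries left out, the edgeR counts ranged from 0 to 1 called and from 0 to 2 past the adjusted p. Without PBS 4, Fam216b was called, beside 0.129% of all mRNAs, and 2 genes passed the adjusted p, beside 3.20%. With a term for the 6 libraries most alike, 1 gene passed the adjusted p (Rsph1, higher), beside 4.29% of all mRNAs. Without EAE 4 and EAE 5, a choice made after the data were seen, 1 passed (Ccdc153, lower), beside 13.2%. The median log2FC of the 10 genes was -0.052 within the 6 libraries most alike. Other cilia genes with an adjusted p under 0.05 numbered 8 with DESeq2 (9.52%, beside 5.03% of all mRNAs), 9 within the 6 libraries most alike (10.8%, beside 24.1%, 1 of them lower, Dnah11), 1 within the other 10 libraries (1.19%, beside 0.0745%, Wdr63, which was also the 1 called there) and 9 without EAE 4 and EAE 5 (10.7%, beside 13.2%). They ranged from 1 (1.19%) to 7 (8.33%) when single libraries were left out, while 0.807% to 7.38% of all mRNAs passed. The 7 came without EAE 4, where 7.38% of all mRNAs passed. Of the genes nearest to Fam216b, 1 of the 9 was among the nearest 1% when values were not centred on the group, and 0 to 1 when single libraries were left out (1 without EAE 3). The cause of these shifts was not tested.

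The replicate numbers did not pair the mice throughout. Replicates 4 (0.58) and 8 (0.29) had their own number as the best match between the groups, and the others did not. The correlation of same-numbered deviations ran from -0.23 to 0.58, with 3 of 8 above 0.1. With the replicate block, 0 of the 10 genes were called, beside 0.0895% of all mRNAs, and their median log2FC was 0.32. In that fit, 4 other cilia genes passed the adjusted p (4.76%), beside 2.89% of all mRNAs. Counts of 7 to 62 reads per library limit Fam216b and Dynlrb2. Mlf1, with 12–65 reads per EAE library and 14–36 per PBS library, shares this limit, and Tmem212 had 16 reads in PBS 1.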
